A study of Mus musculus with 24 samples.

Results

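A set of 9 genes, of the 15875 measured, that mark stretch, overload and a return to fetal gene use in the heart were followed through infarct repair: Nppa, Nppb, Myh7, Acta1, Ankrd1, Ankrd2, Xirp2, Rcan1 and Fhl1. They were taken by gene symbol from the array's probes. Each of the 9 had a probe well above background on all 24 arrays. Nppa and Nppb had 2 probes each and the other genes had 1.

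Total RNA came from the infarct area at risk in the anterior heart wall of male C57BL6/J mice. In every animal the left anterior descending coronary artery had been closed for 45 min and reopened, under isoflurane anaesthesia with buprenorphine for pain relief, and tissue was taken after 24, 48 or 168 h of reperfusion. The IGF1 groups received recombinant insulin-like growth factor 1, a growth and survival hormone, as 40 ng/g under the skin when flow returned followed by an osmotic pump delivering 1 µg/g per day over the first 3 days, so the 168 h tissue was taken after the pump period. The vehicle groups received phosphate-buffered saline with bovine serum albumin. Each of the 6 groups had 4 arrays. The design text of the series speaks of sham-operated controls, but every vehicle sample is labelled with 45 min ischemia; the sample labels were followed. No healthy heart was analysed here, so each level is compared only with other infarct samples.

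Nppa and Nppb encode the natriuretic peptides ANP and BNP, hormones that cardiomyocytes release when their wall is stretched and that promote salt loss and vessel relaxation. Myh7 encodes the slow beta myosin heavy chain and Acta1 skeletal alpha-actin, which the fetal mouse ventricle uses and the adult one largely replaces with Myh6 and Actc1. Ankrd1 and Ankrd2 encode ankyrin repeat proteins that bind titin in the sarcomere and also enter the nucleus. Xirp2 encodes an actin-binding Xin repeat protein of the intercalated disc, Fhl1 a LIM domain protein of the titin spring region, and Rcan1 a calcineurin inhibitor whose short form is itself a calcineurin target.

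Messenger RNA is given throughout as log2 probe signal over the array's 75th percentile, and a difference of 1 on that scale is a doubling. On single arrays, 52.8 to 62.9% of spots passed the scanner software's test of being well above background, and 0 spots were saturated. Differences were tested with limma over all genes with Benjamini-Hochberg adjustment, and "called" means an adjusted p under 0.05. Arrays sat on 4 slides: each slide held 1 vehicle and 1 IGF1 array of 24 h, whereas no slide was shared by the 48 and 168 h IGF1 arrays and 1 (slide 4) by the 48 and 168 h vehicle arrays. The labels name no animals, so a p-value covers only sample-to-sample spread, which may be technical. The tissue expressed its defining genes, with 10 of 10 cardiomyocyte markers above background on every array.

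The promoters of 3 pairs of these genes are shown because the values that follow are set side by side within them: the 2 natriuretic peptides, which lie next to each other on chromosome 4, the 2 fetal sarcomere genes and the 2 ankyrin repeat genes on chromosome 19. Each is the 250 bases before a RefSeq transcript start on its own strand (GRCm38.p6; the array design itself names mm9). Capitals mark MCAT elements (CATTCC or its reverse complement GGAATG, the TEAD motif) and, in Acta1, a CArG box, the SRF motif.
Nppa, chr4:148000472-148000721, plus strand: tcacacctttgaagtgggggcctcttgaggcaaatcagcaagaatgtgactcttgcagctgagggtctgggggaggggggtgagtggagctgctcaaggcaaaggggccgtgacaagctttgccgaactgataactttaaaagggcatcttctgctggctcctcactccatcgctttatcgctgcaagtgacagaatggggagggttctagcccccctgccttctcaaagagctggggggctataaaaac
Nppb, chr4:147985650-147985899, plus strand: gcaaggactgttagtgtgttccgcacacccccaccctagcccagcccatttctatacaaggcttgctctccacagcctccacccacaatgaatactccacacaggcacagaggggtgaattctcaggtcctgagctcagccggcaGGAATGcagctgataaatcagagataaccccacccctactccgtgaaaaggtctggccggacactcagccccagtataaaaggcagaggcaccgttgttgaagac
Myh7, upstream of 2 starts, chr14:54994627-54994876, minus strand: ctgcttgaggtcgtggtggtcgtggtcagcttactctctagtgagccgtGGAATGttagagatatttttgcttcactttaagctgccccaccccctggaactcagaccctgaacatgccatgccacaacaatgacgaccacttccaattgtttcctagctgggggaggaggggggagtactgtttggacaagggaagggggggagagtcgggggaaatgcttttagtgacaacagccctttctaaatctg
Acta1, chr8:123894776-123895025, minus strand: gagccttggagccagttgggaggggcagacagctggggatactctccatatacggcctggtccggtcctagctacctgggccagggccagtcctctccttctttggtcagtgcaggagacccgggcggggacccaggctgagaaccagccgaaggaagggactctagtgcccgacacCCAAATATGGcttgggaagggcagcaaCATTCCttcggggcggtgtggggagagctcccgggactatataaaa
Ankrd1, chr19:36119845-36120094, minus strand: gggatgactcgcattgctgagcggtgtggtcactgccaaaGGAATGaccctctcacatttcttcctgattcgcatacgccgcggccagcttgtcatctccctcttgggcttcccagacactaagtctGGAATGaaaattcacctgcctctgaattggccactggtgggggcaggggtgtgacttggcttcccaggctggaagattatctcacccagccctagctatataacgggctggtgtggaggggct
Ankrd2, chr19:42035777-42036026, plus strand: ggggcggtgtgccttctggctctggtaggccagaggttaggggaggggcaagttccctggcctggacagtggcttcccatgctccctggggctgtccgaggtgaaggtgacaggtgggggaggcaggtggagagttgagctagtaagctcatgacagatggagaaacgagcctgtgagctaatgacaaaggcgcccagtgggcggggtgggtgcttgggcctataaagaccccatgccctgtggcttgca

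Searched on both strands of the 12 such windows of the 9 genes, an MCAT element was found for 4 genes (Nppb, Myh7, Acta1 and Ankrd1), against 12.6% of all 32851 RefSeq promoter windows. A CArG box was found for 2 genes (Acta1 and Fhl1) against 1.47% of all windows. The GATA motif AGATAA was found for 2 genes (Nppb and Ankrd1) against 9.99%, the NFAT core GGAAAA for 1 (Rcan1, 2 matches) against 20.4%, the TATA box TATAAA for 5 against 12.4%, and an E-box (CANNTG) for 9 against 66.2%. The Ankrd2 and Nppa windows held neither an MCAT element nor a CArG box. The percentages are per window, whereas Myh7, Fhl1 and Rcan1 had 2 windows each. The 2 Myh7 windows overlap, and only the 1 shown held the MCAT element. The CArG box of Fhl1 and the NFAT matches of Rcan1 also lay in 1 of their 2 windows. By window, of 12, matches were found in 4 for MCAT, 2 for CArG, 2 for GATA, 1 for NFAT, 5 for TATA and 11 for the E-box. Matches describe these letters only.

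The first question was how these genes moved as the infarct healed without treatment. From 24 to 168 h in vehicle hearts, Myh7 and Acta1 rose, Nppb, Ankrd1, Ankrd2, Xirp2, Rcan1 and Fhl1 fell, and Nppa was not called. So 2 of 9 rose and 6 fell, in a comparison in which 60.2% of all genes were called (28.1% higher and 32.1% lower). Groups did not overlap for 6 of the 9, against 52.9% of all genes. The median of the 9 differences was -0.59, against -0.03 over all genes. In IGF1 hearts 2 of 9 rose (Nppa and Myh7) and 6 fell over the same interval, against 58.5% of all genes called (24.6% higher and 33.9% lower), and the median of the 9 was -0.61 against -0.09. Again 6 of 9 did not overlap, against 52% of all genes. Fewer cells of a type and less RNA per cell cannot be told apart in tissue RNA.

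**Figure D1:**
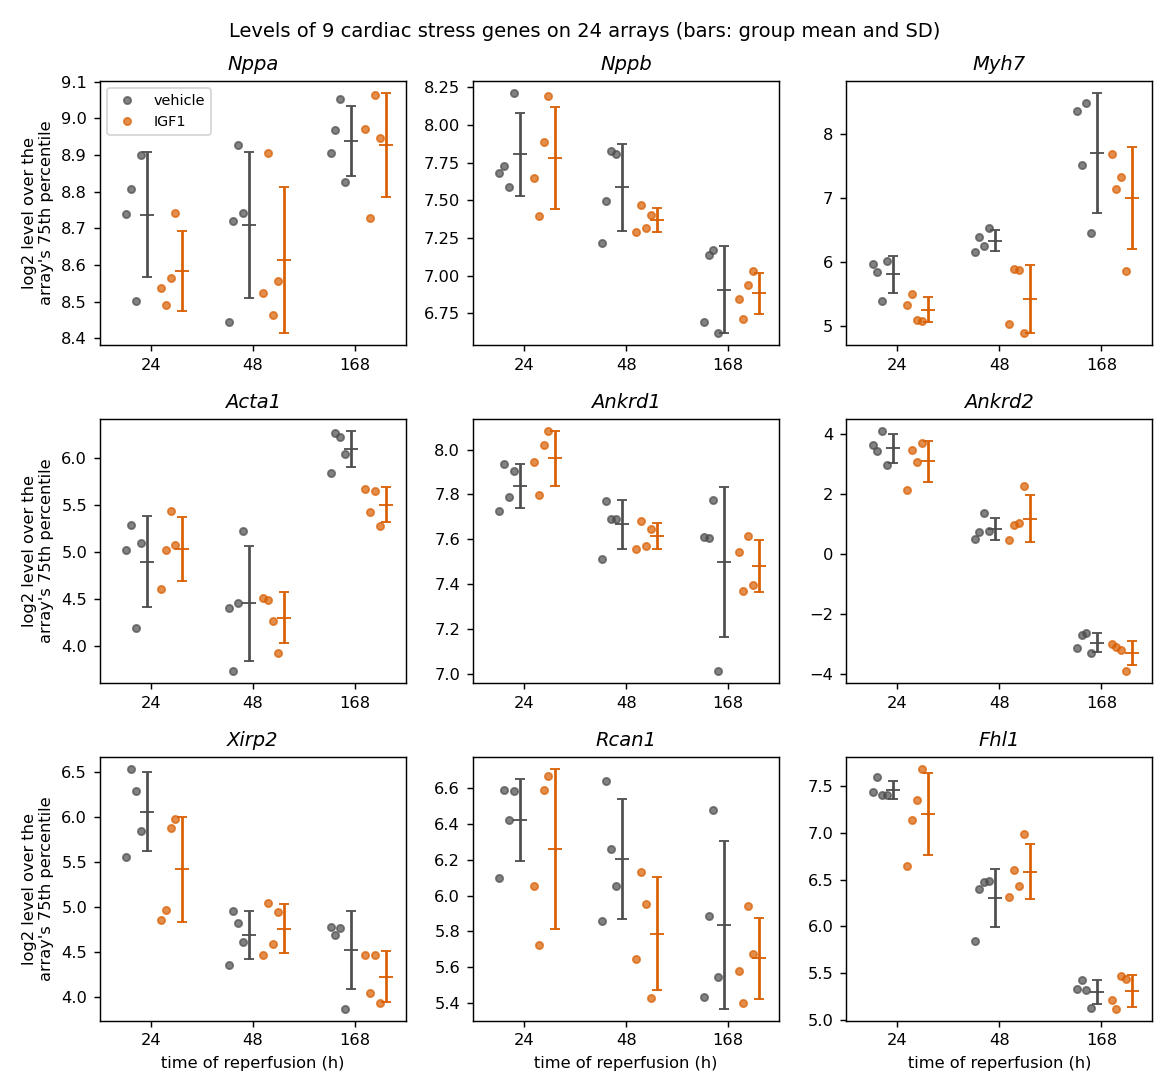
Log2 level of each of the 9 genes over the array's 75th percentile (y) at 24, 48 and 168 h of reperfusion (x), 1 point per array, grey for vehicle and orange for IGF1, with the group mean and SD (n = 4) to the right of the points. Each panel has its own y axis: Ankrd2 spans from 4.12 to -3.91, whereas Nppa stays between 8.44 and 9.06.

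The natriuretic peptides parted. Nppb levels in vehicle hearts were 7.68, 7.73, 7.59 and 8.21 at 24 h, 7.22, 7.50, 7.83 and 7.81 at 48 h and 6.69, 7.14, 7.17 and 6.62 at 168 h. In IGF1 hearts they were 7.65, 7.40, 7.89 and 8.19, then 7.29, 7.47, 7.31 and 7.40, then 6.85, 6.71, 6.94 and 7.03. In both treatments all 168 h arrays lay below all arrays of either earlier time, while 24 and 48 h overlapped. Nppb fell by 0.90 ± 0.17 (SE) between 24 and 168 h in vehicle hearts, which is 1.87-fold (adjusted p = 0.000135), and by the same 1.87-fold in IGF1 hearts (adjusted p = 0.000147). The step from 48 to 168 h was called, at -0.68 ± 0.17 in vehicle (adjusted p = 0.00237) and -0.49 ± 0.17 in IGF1 hearts (adjusted p = 0.0245). The step before it was not, at -0.22 (adjusted p = 0.394) and -0.41 (adjusted p = 0.0663). The IGF1 call after 48 h was lost when replicate 2 of 48 h or replicate 1 or 2 of 168 h was left out (adjusted p = 0.0518 to 0.0685).

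Nppa did not follow. Its vehicle levels were 8.74, 8.81, 8.50 and 8.90 at 24 h, 8.44, 8.72, 8.93 and 8.74 at 48 h and 8.90, 8.97, 9.05 and 8.83 at 168 h. Its IGF1 levels were 8.54, 8.49, 8.56 and 8.74, then 8.52, 8.91, 8.46 and 8.56, then 8.97, 8.73, 9.06 and 8.95. The groups overlapped at every step. The step from 24 to 48 h in IGF1 hearts was 0.03 (adjusted p = 0.859), but quantile normalization called a rise there (0.37, adjusted p = 0.00954). Between 24 and 168 h Nppa rose by 0.34 ± 0.11 (1.27-fold, adjusted p = 0.0124) in IGF1 hearts and differed by 0.20 ± 0.11 (95% interval -0.03 to 0.43, adjusted p = 0.132) in vehicle hearts. The difference between the treatments in this change was not called (adjusted p = 0.826 for any change of the IGF1 effect between times). With the slide as a block the IGF1 rise was 0.29 (adjusted p = 0.0597), and the IGF1 rise from 48 to 168 h, 0.31 ± 0.11 (adjusted p = 0.025), became 0.21 (adjusted p = 0.319); the latter call also ended with quantile normalization (0.18, adjusted p = 0.155) and without any of 5 single arrays (adjusted p = 0.0572 to 0.0817).

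The second, dimmer Nppa probe tracked the first over the 24 arrays (r = 0.89, where the arrays share the time course) but moved further. On it Nppa rose 1.58-fold in vehicle (0.66 ± 0.19, adjusted p = 0.00528) and 1.95-fold in IGF1 hearts (0.96 ± 0.19, adjusted p = 0.00019) between 24 and 168 h. The dimmer probe was added after the values were seen. The call of the vehicle rise depended on the processing: on the brighter probe it was also made with normexp background correction (0.26, adjusted p = 0.0457) and quantile normalization (0.34, adjusted p = 0.00774), and with the mean of both probes (0.43, adjusted p = 0.0153). The same alternatives called the vehicle rise from 48 to 168 h, which was 0.23 (adjusted p = 0.0927) on the brighter probe (adjusted p = 0.035, 0.00462 and 0.00751). The dimmer Nppb probe (r = 0.93 with the first) showed a larger fall over the same interval, 2.95-fold in vehicle (-1.56 ± 0.23, adjusted p = 6.66e-06) and 2.39-fold in IGF1 hearts (-1.25 ± 0.23, adjusted p = 9.27e-05). On it the vehicle fall was already called at 48 h (-0.70 ± 0.23, adjusted p = 0.0332).

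Within each array the log2 difference between the brighter Nppa and Nppb probes grew by 1.10 in vehicle and 1.24 in IGF1 hearts from 24 to 168 h, that is 2.14-fold and 2.37-fold. All 4 late arrays exceeded all 4 early ones in both treatments (two-sided exact permutation p = 0.0286, the smallest that 4 against 4 arrays allow; 0.0409 after adjustment over the 10 such pair tests, which were chosen with results known). The ratio within an array shows unequal change and not which of the genes moved. In every pair test that reached this p, here and below, a single gene of the pair already separated the times by itself. Such a p restates that gene's change and is no further support.

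Atrial tissue is the main source of ANP in the healthy adult heart, so atrial markers are given beside Nppa. Of 9 atrial markers 7 were measured; the probes of Sln and Bmp10, which define atrial muscle, were above background on 0 of 24 arrays. Myl7 was above background on 0 vehicle arrays at 24 h and 3 at 168 h, and on 1 and 4 IGF1 arrays. The list's summed linear level was 5.83 to 6.99 in vehicle hearts at 24 h and 24.0 to 43.7 at 168 h, and 6.42 to 7.37 and 28.0 to 38.9 in IGF1 hearts. Of the 7, 6 rose and 1 fell from 24 to 168 h in vehicle hearts, against 28.1% and 32.1% of all genes. The rises were led by Dkk3 (log2 6.28, adjusted p = 8.57e-13) and Myl4 (2.30-fold, adjusted p = 5.24e-09). Dkk3 carried most of the rise of the sum: without it the other 6 summed to 5.48 to 6.60 at 24 h and 8.56 to 9.82 at 168 h in vehicle hearts. The part of such cells in the Nppa values was not tested.

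The fetal sarcomere genes rose late. Myh7 levels in vehicle hearts were 5.97, 5.85, 5.39 and 6.02 at 24 h, 6.16, 6.40, 6.24 and 6.54 at 48 h, and 8.35, 7.52, 8.48 and 6.45 at 168 h. In IGF1 hearts they were 5.34, 5.51, 5.11 and 5.09, then 5.04, 5.89, 5.87 and 4.89, then 7.68, 7.15, 7.33 and 5.86. In both treatments replicate 4 was the low array of the 168 h group, and the other 3 lay above every earlier array of their treatment. Between 24 and 168 h Myh7 rose 3.72-fold in vehicle (1.89 ± 0.38, adjusted p = 0.000214) and 3.35-fold in IGF1 hearts (1.75 ± 0.38, adjusted p = 0.000514), with no overlap between the times. From 48 to 168 h it rose 2.58-fold (1.37 ± 0.38, adjusted p = 0.00478) and 2.99-fold (1.58 ± 0.38, adjusted p = 0.00175), with overlap. The step from 24 to 48 h was not called, although all 4 vehicle arrays at 48 h lay above all 4 at 24 h (0.53 ± 0.38, adjusted p = 0.344).

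The low Myh7 arrays at 168 h were both on slide 4, and the 3 others of each group on slide 1. Within slide 1, Myh7 was higher at 168 than at 24 h by 2.15 in vehicle and 2.05 in IGF1 hearts, and within slide 4 by 0.43 and 0.77. On slide 4 the vehicle array of 168 h was 0.09 below that of 48 h (-0.09). With the slide as a block the rise since 24 h was 1.51 (adjusted p = 0.00144) in vehicle and 1.36 (adjusted p = 0.0032) in IGF1 hearts. The rise since 48 h was then 0.81 (adjusted p = 0.113) and 1.04 (adjusted p = 0.0682) and no longer called. Without the 5 arrays of slide 4, an alternative chosen after the values were seen, the rise since 48 h was 1.85 (adjusted p = 7.64e-05) and 1.96 (adjusted p = 2.7e-05). That alternative drops the low 168 h arrays and leaves no slide shared by 48 and 168 h arrays. Slide and time cannot be told apart in it, so its larger rise is no further support. The same 168 h arrays of slide 4 were at 6.05 and 5.28 for Acta1 and at -3.32 and -3.91 for Ankrd2, each the lowest of its group except the vehicle Acta1 array.

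**Figure D2:**
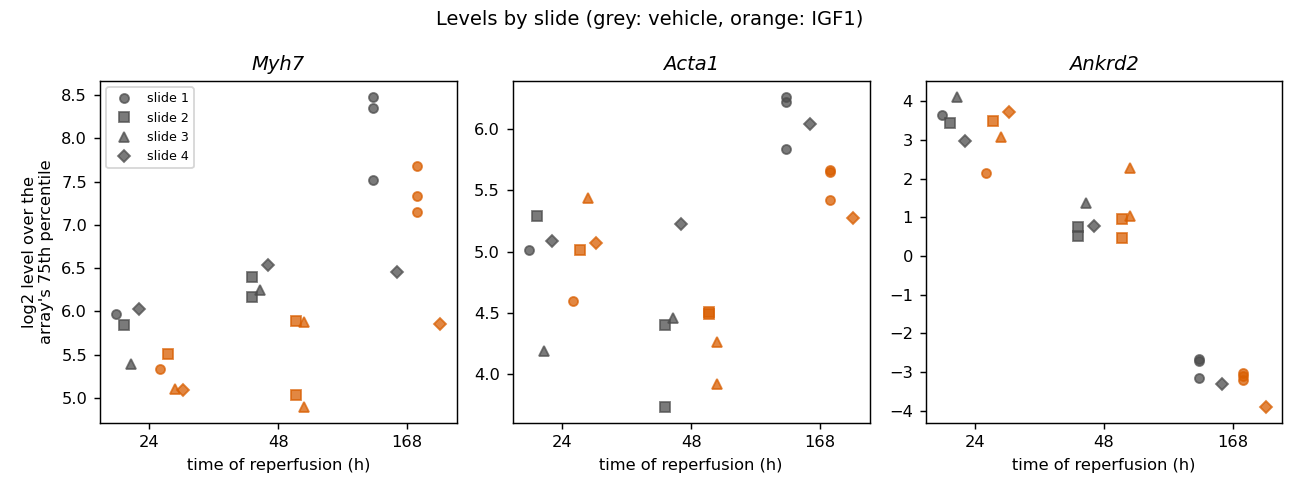
Log2 level over the array's 75th percentile (y) of Myh7, Acta1 and Ankrd2 at 24, 48 and 168 h (x), 1 point per array, with the marker shape giving the slide, grey for vehicle and orange for IGF1. At 168 h the slide 4 arrays (diamonds) are at 6.45 and 5.86 for Myh7, below the slide 1 arrays (circles, 7.15 to 8.48), whereas the Ankrd2 arrays of both slides lie between -2.66 and -3.91.

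Acta1 dipped and then rose. Its vehicle levels were 5.02, 5.29, 4.18 and 5.09 at 24 h, 4.40, 3.73, 4.46 and 5.22 at 48 h and 5.84, 6.27, 6.23 and 6.05 at 168 h. Its IGF1 levels were 4.60, 5.02, 5.44 and 5.07, then 4.51, 4.49, 4.26 and 3.92, then 5.66, 5.42, 5.65 and 5.28. In both treatments all 168 h arrays lay above all 48 h arrays, and in vehicle hearts also above all 24 h arrays. From 48 to 168 h Acta1 rose 3.12-fold in vehicle (1.64 ± 0.26, adjusted p = 1.95e-05) and 2.31-fold in IGF1 hearts (1.21 ± 0.26, adjusted p = 0.000589). From 24 to 168 h it rose 2.30-fold in vehicle hearts (1.20 ± 0.26, adjusted p = 0.000405), while the IGF1 difference was 0.47 ± 0.26 (adjusted p = 0.122). The IGF1 difference was called with quantile normalization (0.74, adjusted p = 0.0179) and when only the arrays compared were fitted (adjusted p = 0.0476). Whether these changes differ between the treatments was tested by the change of the IGF1 effect over times and was not called (adjusted p = 0.406). The fall from 24 to 48 h was called in IGF1 hearts, 1.67-fold (-0.74 ± 0.26, adjusted p = 0.0294), and not in vehicle hearts (-0.44 ± 0.26, adjusted p = 0.23; called without replicate 4 of 48 h, -0.70, adjusted p = 0.0436). The IGF1 fall lost its call with the slide as a block (-0.61, adjusted p = 0.109) and without any of 4 single arrays, replicate 3 or 4 of either time (adjusted p = 0.0584 to 0.096).

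The adult counterparts were not called between 24 and 168 h. Myh6 means lay between 8.34 and 8.71 in the 6 groups and Actc1 means between 8.34 and 8.47. From 24 to 168 h the Myh6 difference was -0.06 ± 0.14 (adjusted p = 0.749) and the Actc1 difference -0.01 ± 0.11 (adjusted p = 0.931) in vehicle hearts. The 1 called step of either gene was a fall of Myh6 from 24 to 48 h in IGF1 hearts (-0.37 ± 0.14, adjusted p = 0.0471). The within-array difference of Myh7 to Myh6 accordingly grew by 1.95 in vehicle and 1.98 in IGF1 hearts from 24 to 168 h, with no overlap (exact permutation p = 0.0286, adjusted 0.0409, for each). That of Acta1 to Actc1 grew by 1.21 in vehicle hearts (exact permutation p = 0.0286, adjusted 0.0409) and by 0.37 in IGF1 hearts, where the times overlapped (exact permutation p = 0.2, adjusted 0.222).

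**Figure D3:**
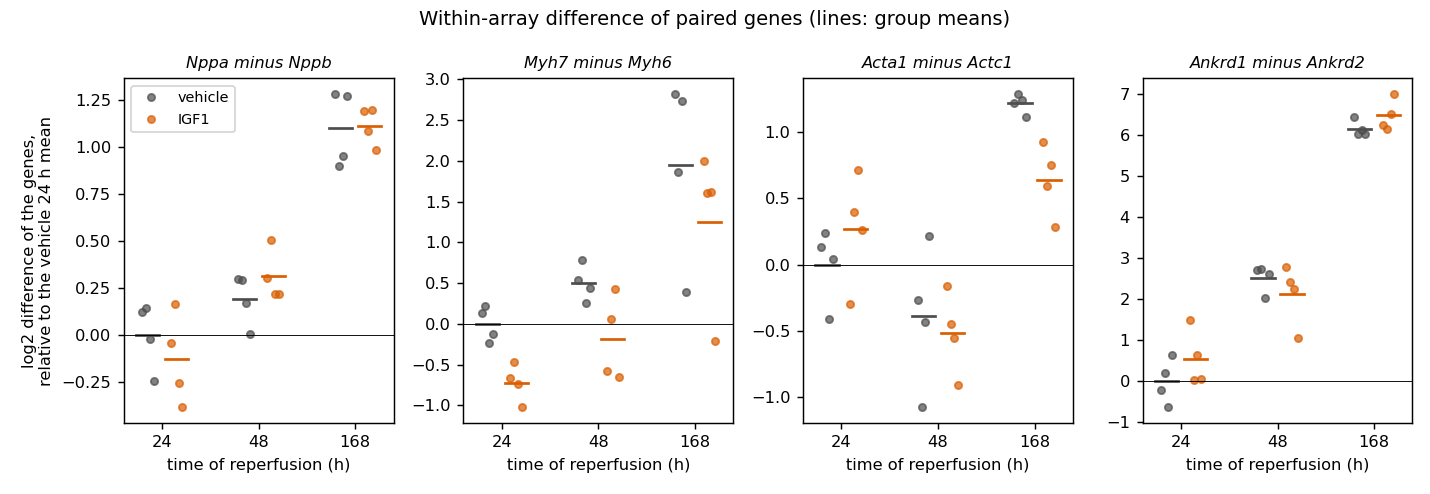
Within-array log2 difference between 2 genes, shown relative to the vehicle 24 h mean (y), at 24, 48 and 168 h (x), 1 point per array and a line at the group mean, grey for vehicle and orange for IGF1. The difference of Nppa to Nppb, of Myh7 to Myh6 and of Ankrd1 to Ankrd2 is higher at 168 h than at 24 h on all arrays of both treatments, whereas Acta1 to Actc1 overlaps in IGF1 hearts.

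Skeletal muscle uses Acta1 and Ankrd2 heavily, so its markers were read too. Of 12 skeletal muscle markers 8 were measured, and the probes of Myh1, Myh2, Myh4 and Actn3, which define fast skeletal fibres, were above background on 0 of 24 arrays. The summed level of the 8, which include the heart-expressed Ckm, was 29.3 to 33.8 in vehicle hearts at 24 h, 20.5 to 29.8 at 48 h and 30.9 to 47.0 at 168 h. In IGF1 hearts it was 35.8 to 58.3, 23.0 to 24.5 and 31.6 to 41.2. Ckm carried most of this sum and its dip at 48 h. Without Ckm the other 7 markers summed to 4.93 to 6.82, 6.58 to 8.76 and 8.49 to 13.0 at the 3 times in vehicle hearts and to 6.76 to 11.8, 5.26 to 8.21 and 9.39 to 11.4 in IGF1 hearts. Their part in the Acta1 and Ankrd2 values was not tested.

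The titin-binding ankyrin repeat genes showed the widest contrast. Ankrd2 levels in vehicle hearts were 3.63, 3.43, 4.12 and 2.96 at 24 h, 0.50, 0.74, 1.36 and 0.78 at 48 h, and -3.15, -2.72, -2.66 and -3.32 at 168 h. In IGF1 hearts they were 2.16, 3.48, 3.08 and 3.72, then 0.47, 0.97, 1.02 and 2.29, then -3.02, -3.09, -3.22 and -3.91. The 3 vehicle times did not overlap, and in IGF1 hearts the highest 48 h array reached above the lowest 24 h array. Between 24 and 168 h Ankrd2 fell 90.4-fold in vehicle (-6.50 ± 0.36, adjusted p = 1.26e-11) and 85.6-fold in IGF1 hearts (-6.42 ± 0.36, adjusted p = 1.49e-11). By size these differences ranked 18 and 22 among the 15875 genes. The probe stayed well above background on all 8 arrays of 168 h, so the values are measured and not bounds. With normexp background correction, which adds an offset of 50 to every signal, the differences were -5.41 and -5.14 and still called.

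Both steps contributed to that fall. From 24 to 48 h Ankrd2 fell 6.46-fold in vehicle (-2.69 ± 0.36, adjusted p = 4.26e-05) and 3.79-fold in IGF1 hearts (-1.92 ± 0.36, adjusted p = 0.000334). From 48 to 168 h it fell 14.0-fold in vehicle (-3.81 ± 0.36, adjusted p = 3.69e-08) and 22.6-fold in IGF1 hearts (-4.50 ± 0.36, adjusted p = 6.27e-09). By size the vehicle differences ranked 25 in the first step and 73 in the second.

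Ankrd1, the cardiac member of the family, moved little. Its levels lay between 7.73 and 7.93 in vehicle hearts at 24 h, 7.51 and 7.77 at 48 h and 7.01 and 7.77 at 168 h, and in IGF1 hearts between 7.80 and 8.08, 7.56 and 7.68, and 7.37 and 7.61. From 24 to 168 h it fell 1.26-fold in vehicle (-0.34 ± 0.12, adjusted p = 0.0173) and 1.40-fold in IGF1 hearts (-0.48 ± 0.12, adjusted p = 0.00145). The vehicle groups overlapped and the IGF1 groups did not. The vehicle call was lost without replicate 4 of 168 h, the array at 7.01 (-0.18, adjusted p = 0.0863), and quantile normalization ended both calls (-0.10, adjusted p = 0.517, and -0.21, adjusted p = 0.156). The vehicle call also ended when only the arrays compared were fitted (adjusted p = 0.106). In IGF1 hearts the fall was called at 48 h (-0.35 ± 0.12, adjusted p = 0.0251), which 1 array less could end (adjusted p = 0.0574 to 0.0727 without replicate 3 or 4 of 24 h or replicate 1 or 3 of 48 h). Quantile normalization (-0.11, adjusted p = 0.508) and the slide block (-0.32, adjusted p = 0.0603) ended it too. The within-array difference of Ankrd1 to Ankrd2 grew by 6.16 in vehicle and 5.94 in IGF1 hearts with no overlap (exact permutation p = 0.0286, adjusted 0.0409, for each). Ankrd23, the third member of the family, was called in none of the 9 comparisons; its vehicle difference from 24 to 168 h was -0.08 ± 0.16 (adjusted p = 0.7).

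The adaptor genes Fhl1 and Xirp2 fell between 24 and 168 h in both treatments. Which Fhl1 isoforms the 1 probe detects was not resolved. Fhl1 levels were 7.43, 7.60, 7.41 and 7.41 in vehicle hearts at 24 h, 5.84, 6.40, 6.48 and 6.49 at 48 h and 5.33, 5.42, 5.32 and 5.12 at 168 h. In IGF1 hearts they were 6.64, 7.13, 7.35 and 7.69, then 6.32, 6.60, 6.43 and 6.99, then 5.21, 5.12, 5.47 and 5.44. The vehicle times were fully separate, while the IGF1 arrays of 24 and 48 h overlapped. Fhl1 fell 2.24-fold by 48 h (-1.16 ± 0.18, adjusted p = 0.000196) and 4.48-fold by 168 h (-2.16 ± 0.18, adjusted p = 3.85e-09) in vehicle hearts. In IGF1 hearts it fell 1.54-fold (-0.62 ± 0.18, adjusted p = 0.0116) and 3.72-fold (-1.90 ± 0.18, adjusted p = 2.56e-08). The IGF1 call at 48 h was lost without replicate 4 of 24 h (adjusted p = 0.0547) and when only the arrays compared were fitted (adjusted p = 0.0727).

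Xirp2 levels were 5.56, 6.54, 6.30 and 5.85 in vehicle hearts at 24 h, 4.36, 4.96, 4.82 and 4.62 at 48 h and 4.78, 4.69, 4.76 and 3.87 at 168 h. In IGF1 hearts they were 4.86, 4.97, 5.88 and 5.98, then 4.47, 5.04, 4.59 and 4.95, then 4.47, 4.05, 4.47 and 3.93. The vehicle arrays fell to a lower level by 48 h and stayed there, with 48 and 168 h overlapping. The vehicle fall by 48 h was 2.59-fold (-1.37 ± 0.27, adjusted p = 0.00121), with a further difference of -0.16 ± 0.27 (adjusted p = 0.636) to 168 h. In IGF1 hearts the step to 48 h was -0.66 ± 0.27 (adjusted p = 0.0598). It was called with the slide as a block (-0.80, adjusted p = 0.046) and without replicate 1 (-0.85, adjusted p = 0.0226) or 2 (-0.81, adjusted p = 0.0322) of 24 h. The IGF1 fall by 168 h was 2.28-fold (-1.19 ± 0.27, adjusted p = 0.000702), against 2.90-fold in vehicle hearts (-1.54 ± 0.27, adjusted p = 4.75e-05). Among relatives, Xirp1 fell 3.49-fold (adjusted p = 2.65e-07) and the Z-disc stretch sensor Csrp3 2.89-fold (adjusted p = 6.32e-10) from 24 to 168 h in vehicle hearts, while Fhl2 rose 1.58-fold (adjusted p = 0.013).

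Rcan1 changed least firmly. Its levels ran from 6.10 to 6.59 at 24 h, 5.86 to 6.64 at 48 h and 5.43 to 6.48 at 168 h in vehicle hearts, and from 5.72 to 6.67, 5.42 to 6.13 and 5.40 to 5.94 in IGF1 hearts. It fell 1.50-fold (-0.59 ± 0.24, adjusted p = 0.0372) in vehicle and 1.53-fold (-0.61 ± 0.24, adjusted p = 0.0316) in IGF1 hearts from 24 to 168 h, with overlap in both. The vehicle call was lost without any of 6 single arrays (adjusted p = 0.0545 to 0.127) and the IGF1 call without any of 4 (adjusted p = 0.065 to 0.113), and quantile normalization and the slide block ended both. Which Rcan1 isoforms its 1 probe detects was not resolved. Its relative Rcan2 rose 1.21-fold in vehicle hearts (0.27 ± 0.12, adjusted p = 0.0478), while its IGF1 difference was -0.26 ± 0.12 (adjusted p = 0.0636).

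**Figure D4:**
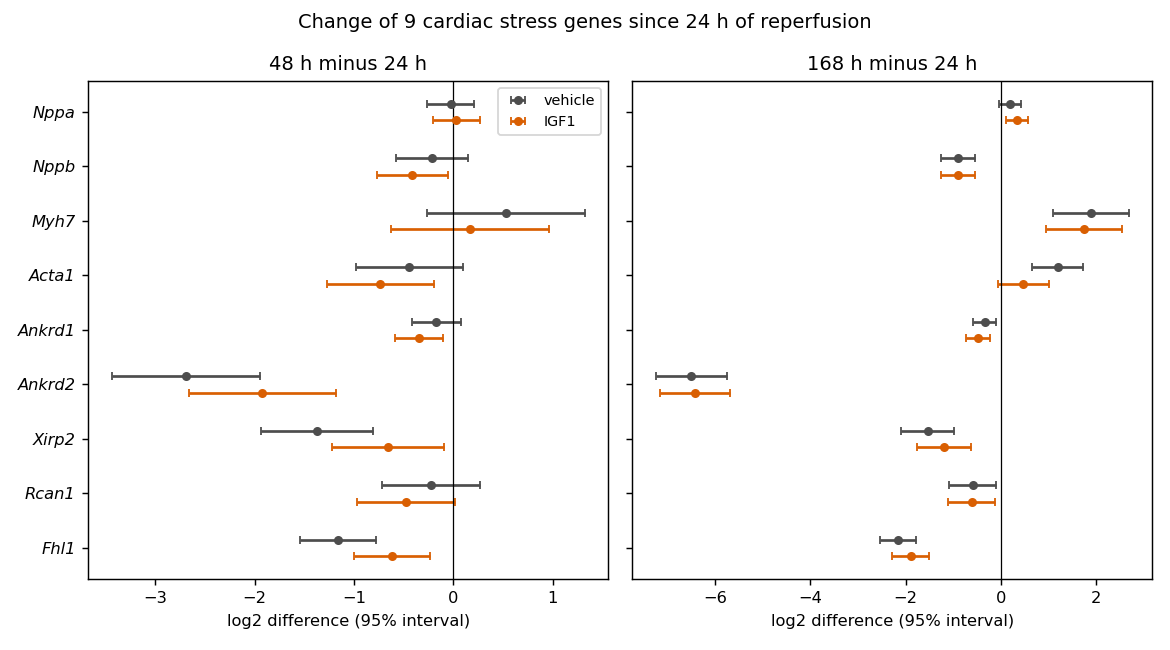
Log2 difference of each gene from 24 h (x) at 48 h (left) and 168 h (right), with its 95% interval from the limma fit, grey for vehicle and orange for IGF1. Ankrd2 (-6.50 and -6.42 at 168 h) and Fhl1 (-2.16 and -1.90) lie left of 0 at both times in both treatments, and Myh7 (1.89 and 1.75) lies right of 0 at 168 h.

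The 2 steps can also be read by count. From 24 to 48 h 3 of 9 genes fell in vehicle hearts (Ankrd2, Xirp2 and Fhl1) and 0 rose, against 22.7% of all genes called (11.2% higher and 11.5% lower), and 4 of 9 did not overlap, against 23.6%. In IGF1 hearts 4 of 9 fell (Acta1, Ankrd1, Ankrd2 and Fhl1) and 0 rose, against 37.6% called (16.3% higher and 21.3% lower), and 2 of 9 did not overlap, against 36.6%. From 48 to 168 h 2 rose (Myh7 and Acta1) and 3 fell (Nppb, Ankrd2 and Fhl1) in vehicle hearts, against 53.2% called (25% higher and 28.1% lower), and 4 of 9 did not overlap, against 43.8%. In IGF1 hearts 3 rose (Nppa, Myh7 and Acta1) and 3 fell (Nppb, Ankrd2 and Fhl1), against 48.8% called (22.6% higher and 26.2% lower), and 5 of 9 did not overlap, against 51.3%. The comparisons with 24 h share the 24 h arrays, and those with 48 h share the 48 h arrays.

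Cells other than cardiomyocytes changed in the same samples. The summed level of 9 fibroblast markers was 198 to 303 in vehicle hearts at 24 h, 592 to 743 at 48 h and 1350 to 1514 at 168 h. That of 8 measured neutrophil markers was 319 to 491, 198 to 320 and 80.2 to 129. Csf3r, with group means of 6.51 to 6.69 at all times, held most of that sum at 168 h; without it the other 7 summed to 219 to 378, 106 to 228 and 1.54 to 22.5. That of the 10 cardiomyocyte markers was 1570 to 2140, 1689 to 2207 and 1753 to 2180, with overlap at all times. The brightest genes weigh most in this sum, and single markers did change. From 24 to 168 h 5 of the 10 rose and 0 fell in vehicle hearts, against 28.1% and 32.1% of all genes. In IGF1 hearts 1 rose and 3 fell, against 24.6% and 33.9%. Over the 24 arrays the mean cardiomyocyte marker level correlated with Ankrd2 at r = -0.32 and with Fhl1 at r = -0.31, and the mean fibroblast level at r = -0.97 and -0.95; the arrays share the time course, so these describe it. The part of cell composition in the time changes was not tested.

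The second question was whether IGF1 changed these genes at a given time. At 24 h 0 of 9 were called by limma, in a comparison in which 16% of all genes were called (8.76% higher and 7.26% lower), and 1 of 9 had an unadjusted p under 0.05, as did 30.2% of all genes; 0 of 9 did not overlap, against 18.4%. At 48 h 0 of 9 were called against 0.0126% of all genes (2 of 15875), and at 168 h 0 of 9 against 0%, and 1 of 9 had an unadjusted p under 0.05 at each of these times, as did 8.88% and 3.87% of all genes (1410 and 615). The medians of the 9 differences were -0.16, -0.10 and -0.19 at the 3 times, against 0.01, -0.01 and -0.01 over all genes. The IGF1 effect changed between times for 0 of 9 genes, against 5.6% of all genes, with adjusted p of 0.377 to 0.902.

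Myh7 was lower in the IGF1 mean at all 3 times. The difference was -0.55 ± 0.38 at 24 h (95% interval -1.34 to 0.24, adjusted p = 0.354), -0.91 ± 0.38 at 48 h (-1.70 to -0.12, adjusted p = 0.494) and -0.70 ± 0.38 at 168 h (-1.49 to 0.09, adjusted p = 1). At 48 h all 4 IGF1 arrays lay below all 4 vehicle arrays. Groups did not overlap, in either direction, for 5.9% of all genes. The Myh7 difference was 1.88-fold with an unadjusted p of 0.0263 by limma. Within each slide that held both treatments, IGF1 was below vehicle at 24 h in 4 of 4 slides, at 48 h in 2 of 2 and at 168 h in 2 of 2, by -0.29 to -0.93. At 168 h the 4 pairs of same-numbered arrays differed by -0.67, -0.37, -1.15 and -0.60. That the numbers pair the samples there is a hint from the data and not the design. With the number as a block over the 8 arrays of that time alone, an alternative added after the values were seen, the difference was -0.70 ± 0.14 (95% interval -1.05 to -0.35, unadjusted p = 0.00365, adjusted p = 0.578 by limma). None of the 3 differences passed the adjustment over all genes. Here and for Acta1 below, the slide, pair and block values reuse the arrays of the tested differences and are no further support.

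Acta1 at 168 h was the other gene whose groups did not overlap. IGF1 hearts held 5.28 to 5.66 and vehicle hearts 5.84 to 6.27, a 1.51-fold lower level (-0.59 ± 0.26, 95% interval -1.13 to -0.06, unadjusted p = 0.0319, adjusted p = 1). Groups did not overlap for 2.65% of all genes in that comparison. Within slide the difference was -0.53 and -0.77. With the replicate block over the 168 h arrays alone it was -0.59 ± 0.13 (95% interval -0.91 to -0.27, adjusted p = 0.578 by limma). At 24 and 48 h the Acta1 groups overlapped, with differences of 0.14 ± 0.26 and -0.16 ± 0.26.

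Xirp2 was lower with IGF1 at 24 h by -0.64 ± 0.27 (95% interval -1.20 to -0.08, unadjusted p = 0.0269, adjusted p = 0.11), with overlapping groups. It was called once replicate 4 of the IGF1 24 h group was left out (adjusted p = 0.0477) and without slide 4 (-0.90, adjusted p = 0.0398). Both settings leave out that array, at 5.98 the highest of its group. Only these 2 of 19 alternatives called it. Over the 19 the Xirp2 difference at 24 h ran from -0.90 to -0.45, with adjusted p of 0.0398 to 0.344 by limma. At 48 and 168 h its differences were 0.07 ± 0.27 and -0.30 ± 0.27. Rcan1 was lower by -0.16, -0.42 and -0.19 at the 3 times, with an SE of 0.24 and adjusted p of 0.628 or more.

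On the brightest probes, an IGF1 effect on Nppa, Ankrd1 and Nppb was bounded by the smallest standard errors of the 9 (0.11, 0.12 and 0.17). For Nppa the 95% intervals were -0.39 to 0.08 at 24 h, -0.33 to 0.14 at 48 h and -0.24 to 0.22 at 168 h. For Nppb they were -0.38 to 0.34, -0.58 to 0.14 and -0.38 to 0.34, and for Ankrd1 -0.12 to 0.37, -0.30 to 0.19 and -0.27 to 0.22. For Nppa and Nppb these intervals hold on the scale of the brighter probes, which moved less from 24 to 168 h than the dimmer ones. In vehicle hearts that change was 0.20 against 0.66 for Nppa and -0.90 against -1.56 for Nppb. Whether the brighter probes understate differences was not tested. The dimmer probes bound the effect less closely. On them the limma difference at 24 h was -0.38 ± 0.19 for Nppa (adjusted p = 0.189) and -0.35 ± 0.23 for Nppb (adjusted p = 0.326). At 48 and 168 h it was 0.05 and -0.07 for Nppa and 0.08 and -0.05 for Nppb. Ankrd2 was more loosely bound, with differences of -0.43, 0.34 and -0.35 and an SE of 0.36. Fhl1 differed by -0.26, 0.28 and 0.01 with an SE of 0.18. A p above the threshold does not show that the treatments act alike.

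**Figure D5:**
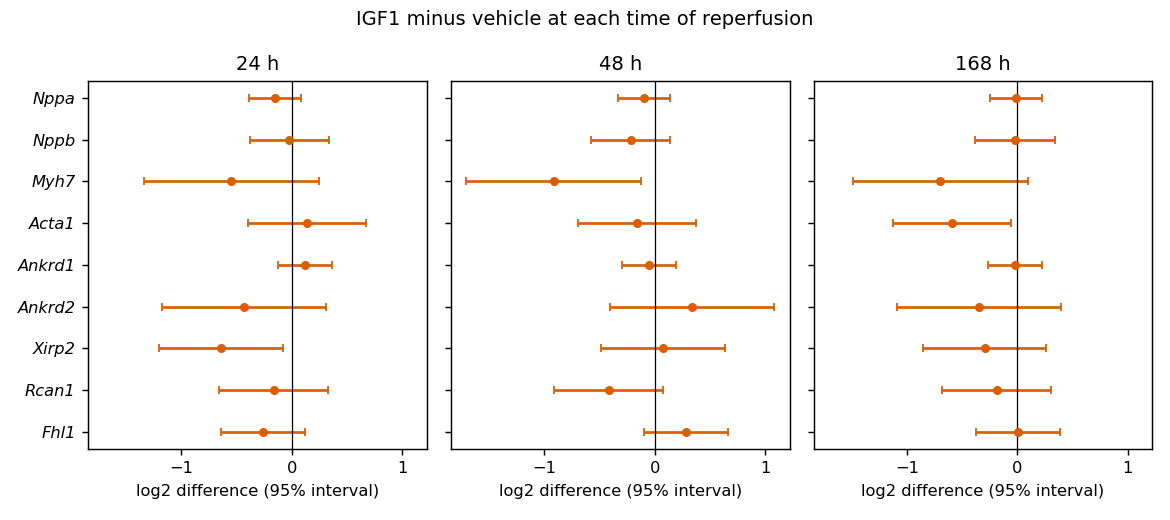
Log2 difference IGF1 minus vehicle (x) of each gene at 24, 48 and 168 h, with its 95% interval before adjustment over genes. The intervals of Xirp2 at 24 h, Myh7 at 48 h and Acta1 at 168 h lie left of 0, and the other 24 include it.

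Other cardiomyocyte genes were read from lists chosen with earlier results known. With IGF1 at 24 h 8.76% of all genes were called higher and 7.26% lower, which is the background for the counts below. Of 14 adult counterparts and mature cardiomyocyte genes, 9 were higher with IGF1 at 24 h and 0 lower, with a median of 0.47 against 0.01 over all genes; the calcium pump Atp2a2 was 1.72-fold (adjusted p = 0.00401), myoglobin (Mb) 1.36-fold (adjusted p = 0.00647) and the potassium channel subunit Kcnip2 2.45-fold (adjusted p = 0.00877) higher. Of 18 genes of titin, the Z-disc and the intercalated disc, 5 were higher and 1 lower: Myoz2 was 1.67-fold (adjusted p = 0.00248) and the ubiquitin ligase Trim63 1.47-fold higher (adjusted p = 0.00937), and Csrp3 1.26-fold lower (adjusted p = 0.0465). Of 14 other fetal isoforms 1 was higher, Myh7b (1.71-fold, adjusted p = 0.0136), and 0 lower. In the same samples 5 of 6 measured T, NK and B cell genes and 6 of 9 monocyte and macrophage genes (1 higher) were lower with IGF1 at 24 h. Of 8 measured neutrophil genes 0 were called (median 0.06), and of 10 cardiomyocyte markers 5 were higher. The part of cell composition here was not tested.

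The machinery of natriuretic peptide signalling was read from a list of 11 genes, 10 of them measured. With IGF1 at 24 h 2 were higher and 0 lower, against 8.76% and 7.26% of all genes. The 2 were Corin, the protease that activates ANP (1.49-fold, adjusted p = 0.00579), and Npr2, the receptor for C-type natriuretic peptide (1.41-fold, adjusted p = 0.00363). From 24 to 168 h in vehicle hearts 3 rose and 2 fell: Pcsk6, a convertase that activates corin, rose 7.56-fold (adjusted p = 8.12e-10), Npr2 1.74-fold (adjusted p = 7.06e-07) and the degrading enzyme neprilysin (Mme) 3.67-fold (adjusted p = 9.23e-05). In IGF1 hearts 3 rose and 3 fell; 60.2% of all genes were called in the vehicle comparison and 58.5% in this one. In IGF1 hearts Pcsk6 was 4.90-fold higher (adjusted p = 2.5e-08) and Corin 2.01-fold lower at 168 h (adjusted p = 8.89e-07).

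Upstream regulators moved both ways, in comparisons in which 60.2% (vehicle) and 58.5% (IGF1) of all genes were called. Of 24 calcineurin, NFAT, GATA, MEF2 and SRF regulators, 10 rose and 7 fell from 24 to 168 h in vehicle hearts (median 0.11): Nfatc4 rose 2.21-fold (adjusted p = 9.67e-09), and the SRF coactivator Myocd fell 1.65-fold (adjusted p = 6.09e-06). Of 12 YAP, TEAD and MRTF genes 3 rose and 4 fell (median -0.05), with Amotl2 1.52-fold (adjusted p = 4.54e-05) and Ccn1 1.92-fold (adjusted p = 0.000233) lower. With IGF1 at 24 h 5 of the 24 were higher and 2 lower, against 8.76% and 7.26% of all genes. Of the 12 YAP, TEAD and MRTF genes 0 were higher and 1 lower, the smooth muscle calponin Cnn1 (2.12-fold, adjusted p = 0.00755). Of the 18 titin, Z-disc and disc genes 5 rose and 8 fell from 24 to 168 h in vehicle hearts, led by the chaperone Cryab (2.67-fold lower, adjusted p = 4.04e-10) and by Flnc, filamin C (5.98-fold lower, adjusted p = 1.61e-09). In IGF1 hearts 0 rose and 11 fell, with a median of -0.67 against -0.09 over all genes.

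Over the 24 arrays the 9 genes formed no single course. Their 36 pairwise correlations ran from -0.75 (Myh7 with Ankrd2) to 0.97 (Ankrd2 with Fhl1), with a median of 0.31. Nppa correlated with Myh7 at r = 0.69 and with Nppb at r = -0.24, whereas Nppb correlated with Fhl1 at r = 0.88. The arrays share 3 times and 2 treatments, so these are descriptions. The genes most like each member, of 14579 with a plain symbol, were Hspb2 for Ankrd2 (r = 0.99), Flnc for Fhl1 (r = 0.98), Mical2 for Xirp2 (r = 0.95), Shb for Nppb (r = 0.94) and Apc2 for Acta1 (r = 0.91). They were Itgb5 for Myh7 (r = 0.91), Maff for Ankrd1 (r = 0.90), Bcl2 for Nppa (r = 0.85) and Tmem185b for Rcan1 (r = 0.82).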

How the data were processed

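Per the file headers, the 24 deposited one-colour scanner files were made with Feature Extraction 12.0.3.2 (Agilent), and their processed signal is a background-corrected linear intensity not scaled between arrays. The authors' value table holds log2 values of 33957 probes, centred per probe (column medians -0.0557 to 0.0527), which the measure used here matched with array offsets of at most 0.0025; how its probes were chosen is not given in the sources used here.

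Control spots and the 53 to 130 outlier spots per array were left out. Spots of 1 probe were averaged after log2, and each array's 75th percentile over probes was subtracted, a basis chosen over spots after values were seen because it matched the authors' table. A probe well above background on at least 4 arrays was kept, a gene being represented by its brightest kept probe; 33767 of 56605 probes had 1 symbol from RefSeq. Probe cross-hybridisation was not tested.

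Limma 3.58.1 (R 4.3.3) fitted 1 mean per group over 24 arrays (18 residual degrees of freedom), two-sided, adjusted over 15875 genes; it was tested on simulated data. The authors' analysis design is not given in the sources used here. The 9 genes and all lists were chosen with earlier results of these data known. All 9 genes are named in each comparison, up to 3 genes of a list by smallest p (others after their values were seen), and the most correlated genes. Same-numbered arrays were on the same slide at 24 and 168 h. At 168 h all 4 pairs deviated together (r = 0.19 to 0.50). The labels state no pairing, so this is a hint from the data and not the design. The number of arrays limits the precision.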

Additional observations from a re-analysis of the deposited data

Results flagged for a closer look

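In 3 of 54 groups of 4 arrays (9 genes in 6 groups) 1 array lay far from the other 3 by Dixon's criterion, which chance gives for about 1 in 20 groups. Xirp2 was 3.87 in replicate 4 of the vehicle hearts at 168 h, against 4.69 to 4.78 in the others. Fhl1 was 7.60 in replicate 2 of the vehicle hearts at 24 h, against 7.41 to 7.43. Fhl1 was 5.84 in replicate 1 of the vehicle hearts at 48 h, against 6.40 to 6.49.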

How the results depend on the processing

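Over 12 kinds of alternative, and leaving out each array in turn, the results of single genes kept direction and side of the threshold 1735 times, lost the call 53 times, gained one 24 times and changed sign 42 times, each time for a difference that was not called. Not every move of a count of members is listed. The largest, relative to the main count, were as follows. Quantile normalization gave 1 higher and 2 lower in IGF1 hearts from 24 to 48 h; the slide as a block gave 1 higher in vehicle and 1 in IGF1 hearts from 48 to 168 h and 1 in IGF1 hearts from 24 to 168 h; and leaving out slide 4, chosen after the values were seen, gave 1 lower with IGF1 at 24 h. With each array left out in turn, the IGF1 count at 24 h was 0 to 1 lower and the IGF1 count from 24 to 48 h 1 to 7 lower, against 4 (7 without replicate 2, 1 without replicate 4 and 2 without replicate 3 of the 24 h group, and 2 without replicate 3 of the 48 h group). Taking the 75th percentile over spots, also added after values were seen, changed no call of the 9 genes. Smaller moves reached the counts from 24 to 168 h, which were 2 higher and 6 lower in both treatments. In vehicle hearts quantile normalization called Nppa higher (adjusted p = 0.00774 by limma). It lost the calls of Ankrd1 and Rcan1 there (adjusted p = 0.517 and 0.269). In IGF1 hearts it called Acta1 higher and also lost Ankrd1 and Rcan1. With an array left out, 4 to 6 were lower in vehicle and 5 to 6 in IGF1 hearts.

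Calls over all genes moved by over 1.5 times in these cases: IGF1 against vehicle at 24 h, 947 with only the arrays compared and 1203 to 2508 with an array left out, against 2542; at 48 h, 56 with the slide block, 0 with only the arrays compared, 0 without slide 4 and 2 to 4 with an array left out; at 168 h, 1 with normexp and 0 to 10 with an array left out; vehicle 48 against 24 h, 2317 to 3391 with an array left out; and the change of the IGF1 effect, 406 without the filter on dim probes, 1528 with the slide block, 282 without slide 4 and 342 to 1418 with an array left out, against 889.

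Signs changed with quantile normalization for IGF1 against vehicle at 48 h in Nppa (0.13) and Ankrd1 (0.087), vehicle 168 against 48 h in Ankrd1 (0.035) and Xirp2 (0.0024), and IGF1 168 against 48 h in Rcan1 (0.063). They changed with the slide block for Xirp2 at 48 h (-0.028) and from 48 to 168 h in vehicle hearts (0.0044). They changed on the dimmer probes at 48 h for Nppa (0.052) and Nppb (0.081). Without slide 4 they changed for Acta1 at 48 h (0.10), Fhl1 at 168 h (-0.094), vehicle 48 against 24 h in Nppa (0.014) and vehicle 168 against 48 h in Ankrd1 (0.0037) and Xirp2 (0.030). With an array left out, IGF1 minus vehicle ranged at 24 h from -0.10 to 0.28 for Acta1, -0.16 to 0.11 for Nppb and -0.30 to 0.014 for Rcan1. At 48 h it ranged from -0.037 to 0.17 for Xirp2, -0.40 to 0.10 for Acta1 and -0.024 to 0.58 for Ankrd2. At 168 h it ranged from -0.18 to 0.071 for Ankrd1, -0.12 to 0.065 for Nppb, -0.056 to 0.056 for Nppa, -0.32 to 0.026 for Rcan1 and -0.050 to 0.074 for Fhl1. Nppa from 24 to 48 h ranged from -0.11 to 0.059 in vehicle and -0.069 to 0.081 in IGF1 hearts, and Xirp2 from 48 to 168 h from -0.27 to 0.055 in vehicle hearts. The cause was not tested.

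With the replicate number as a replicate block 2923 genes were called at 24 h; of the 9 genes the call changed for 1, Nppb from 24 to 48 h in IGF1 hearts (-0.41, adjusted p = 0.0451). Between the treatments, same-numbered arrays had r = -0.05 to 0.13 at 24 h and -0.0049 to 0.11 at 48 h, so there they share only a number. From 24 to 48 h in vehicle hearts r was 0.05 to 0.38, with each array best matched by its own number. Of these 4 pairs 3 shared a slide, so number and slide cannot be told apart in those 3. Such a match is a hint from the data and not the design. Files gave no raw mean signal, so normexp used the median signal. Ankrd2 at 168 h is a dim signal, and normexp moved its fall as given in the text.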

Other observations

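Of 14 adult counterparts and mature cardiomyocyte genes, 9 fell and 0 rose from 24 to 48 h in IGF1 hearts (median -0.46). In vehicle hearts 3 rose and 1 fell (median -0.03). The difference between the treatments was not tested for the list as a whole. By gene, the IGF1 effect changed between times for 3 of the 14, against 5.6% of all genes. The IGF1 step shares its 24 h arrays with the comparison in which 9 of the 14 were higher with IGF1 (median 0.47). At 48 h 0 of the 14 were called between the treatments (median -0.07), against 0.0126% of all genes. Of 18 titin, Z-disc and intercalated disc genes 12 fell in IGF1 and 7 in vehicle hearts from 24 to 48 h, and 0 rose in either. Of all genes 21.3% were called lower in IGF1 hearts and 11.5% in vehicle hearts in this step. In vehicle hearts these falls included Csrp3 (2.00-fold, adjusted p = 9.29e-06), Nrap (1.96-fold, adjusted p = 2.64e-05) and Flnc (2.87-fold, adjusted p = 5e-05).

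Other fetal isoforms went their own ways from 24 to 168 h in vehicle hearts, with 5 of 14 higher and 3 lower, against 28.1% and 32.1% of all genes. The atrial and fetal light chain Myl4 rose 2.30-fold (adjusted p = 5.24e-09) and the brain creatine kinase Ckb 2.14-fold (adjusted p = 2.3e-06), whereas the fetal glucose transporter Slc2a1 fell 2.79-fold (adjusted p = 1.19e-09). Among mature genes the transient outward current subunits Kcnip2 and Kcnd2 rose 4.92-fold (adjusted p = 1.73e-06) and 3.91-fold (adjusted p = 2.92e-05) in the same interval in which Myh7 and Acta1 rose.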
